A study of Mus musculus with 31 samples.

Results

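The core clock loop genes are the 10 genes of the feedback loop that keeps daily time in mouse cells, and they were chosen by name. Arntl, Clock and Npas2 make up the positive limb, and Per1, Per2, Per3, Cry1, Cry2, Nr1d1 and Nr1d2 the negative limb. All 10 were read by at least 1 usable probe, out of 23968 gene names measured. The array carries 24 probes with these names, and 23 of them passed the filter on dim spots and stand in the deposited table. The probe left out was A_66_P135046 of Per3, whose spots were usable on too few arrays.

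ARNTL, also called BMAL1, pairs with CLOCK or with its close relative NPAS2, and the pair switches on the period genes, the cryptochrome genes and the genes of the REV-ERB receptors. PER and CRY proteins return to the nucleus and hold the pair back, while REV-ERBα and REV-ERBβ, made from Nr1d1 and Nr1d2, repress Arntl, Npas2, Clock and Cry1. In liver the RNA of most of these genes rises and falls every day, each in its own phase, and the time of feeding can shift that phase.

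Liver RNA was measured on 31 one-colour Agilent arrays from male C57BL6/J mice. Total ChREBP-KO mice (7 arrays) are Mlxipl-null and lack both the α and the β isoform of ChREBP, the transcription factor that responds to glucose, and 8 arrays came from their WT littermates. ChREBPβ-deficient mice (8 arrays) carry a CRISPR/Cas9 deletion at the exon that starts the β isoform, and 8 arrays came from their own WT littermates. All mice were fasted for 24 h and then refed for 18 h with chow and water containing 20% glucose. Both deletions are present in the whole body and not in liver alone. The mice were kept on a daily cycle of light and dark, and a morning hour is stated for blood samples. The age of the arrayed mice and the hour at which livers were taken are not given in the sources used here.

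Values are log2 intensities after quantile normalization, and between 34131 and 38612 spots per array were usable. The number of arrays limits the precision. Replicates 7 and 8 of the WT littermates of the total ChREBP line gave nearly identical arrays, with a standard deviation of the log2 difference between them of 0.09, against 0.18 for the next closest pair and a median of 0.39 over all pairs. Since 2 spots of the same probe on the same array differed by more than that (0.17), both arrays were averaged and counted as 1 mouse, which leaves 30 mice and 7 WT mice in this line. Each count of called loop genes is also given with the 31 arrays kept apart. As a check of the labels, the brightest Mlxipl probe differed by -1.17 on the log2 scale in total ChREBP-KO mice (adjusted p = 3.39e-12 by limma) and by -0.45 in ChREBPβ-deficient mice (adjusted p = 0.0199 by limma), each against its littermates.

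**Figure D1:**
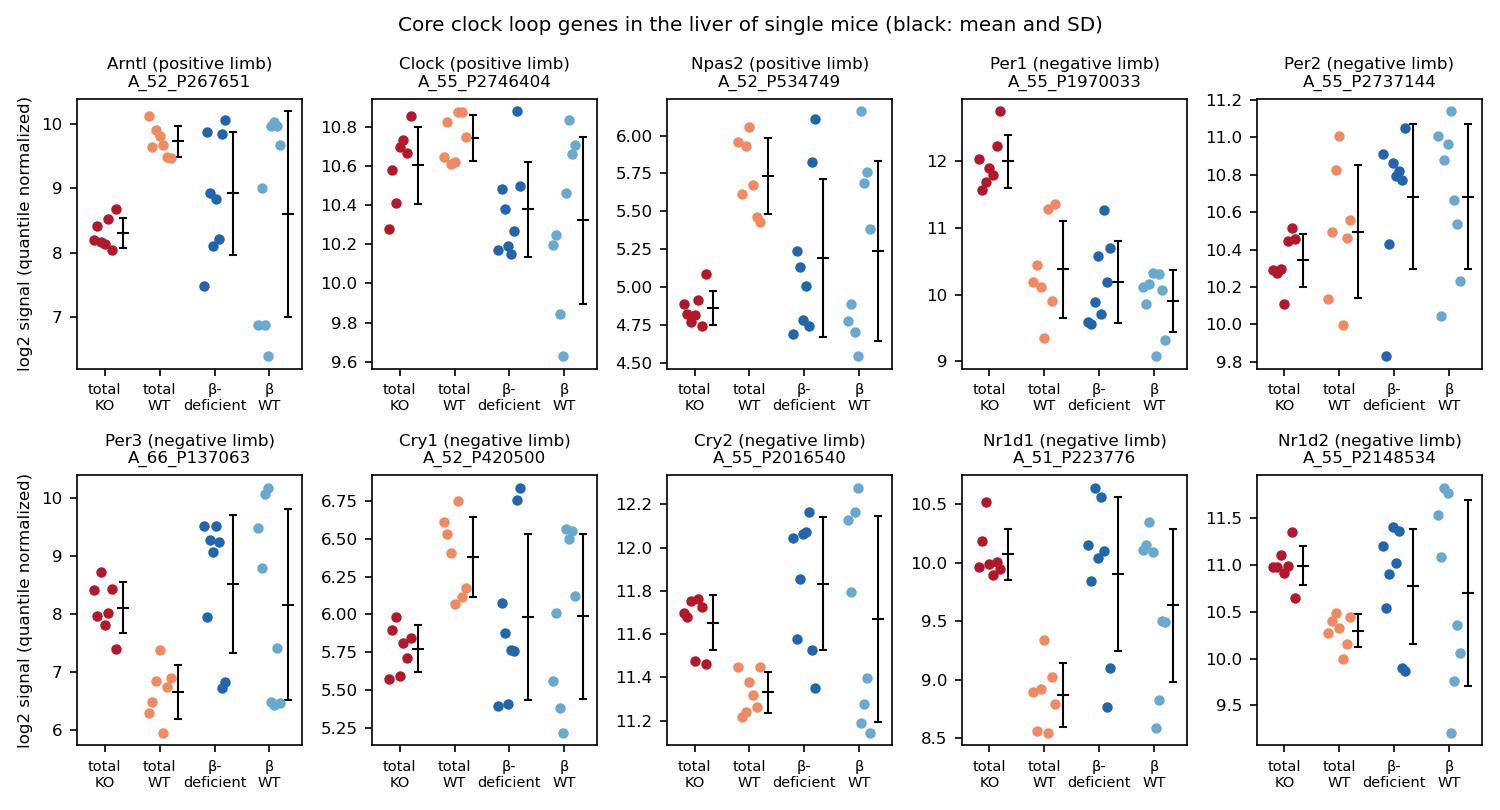
Normalized log2 intensity of the brightest probe of each of the 10 loop genes in single mice, by genotype group, with points for mice and bars for the mean and SD. Arntl ranged from 8.04 to 8.68 in total ChREBP-KO mice and from 9.46 to 10.11 in their WT littermates, while in the ChREBPβ line both genotypes spread over a wider range.

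The comparison of total ChREBP-KO mice with their WT littermates asks how the loop genes of refed liver differ in mice without both isoforms. The hour at which livers were taken is not given, so genotype and time of collection cannot be told apart in this comparison. Arntl and Npas2 of the positive limb were lower, and Per1, Per3, Cry2 and Nr1d1 of the negative limb were higher. Cry1, a negative limb gene, was lower with Arntl. In all, 4 of the 10 genes were higher, where 16.3% of all gene names were called higher, and 3 were lower, where 16.2% were called lower. A gene was called when at least 1 of its probes had a limma adjusted p under 0.05. Clock, Per2 and Nr1d2 were not called.

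Of the 23 probes, 9 were called, against 27.3% of all probes, and 14 had an unadjusted p under 0.05, against 37.2%. The values of both groups did not overlap at all for 14 of the 23 probes, against 7.7% of all probes, and these 14 included each of the 9 called. The median log2 difference over the 23 probes was 0.14, against 0.01 over all probes. RNA came from whole liver, so a gene read in fewer cells and a gene with less RNA per cell cannot be told apart.

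In the positive limb, Arntl encodes the partner that both forms of the activating pair share. Its brightest probe, A_52_P267651, gave 8.04, 8.20 and 8.68 (lowest, median and highest) in the 7 total ChREBP-KO mice and 9.46, 9.67 and 10.11 in the 7 WT mice. Every KO mouse was below every WT mouse. The log2 difference was -1.42 (standard error, SE, 0.49, adjusted p = 0.0306). The spots of this probe were usable on 5 of the 7 KO arrays and all 8 WT arrays, though well above background on each. Both other Arntl probes were also lower in all KO mice, by -1.18 for A_66_P127371 (adjusted p = 0.0187) and by -1.11 for A_55_P2735445 (adjusted p = 0.0459). Over the alternatives tried, the adjusted p of the brightest probe ran from 1.11e-06 to 0.390. Without WT replicate 1 or WT replicate 3 that probe missed the threshold, with adjusted p between 0.0510 and 0.0546, while A_66_P127371 passed whichever mouse was left out. The call of A_55_P2735445 was lost on leaving out any of 16 mice, with adjusted p from 0.0501 to 0.0822: KO replicates 1, 2, 4, 5, 6 and 7, each of the 7 WT mice, ChREBPβ-deficient replicates 3 and 5, and replicate 2 of the WT littermates of that line.

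Npas2 encodes a relative of CLOCK that can take its place beside ARNTL. Its single probe, A_52_P534749, gave 4.74, 4.82 and 5.08 in KO mice and 5.43, 5.67 and 6.06 in WT mice. The groups did not overlap. The log2 difference was -0.87 (SE 0.22, adjusted p = 0.00306), and the call held whichever mouse was left out. Over the alternatives the difference ran from -1.71 to -0.44 and its adjusted p from 1.83e-05 to 0.293. This probe was dim, and its spots stood well above background in 5 of the 7 KO arrays and in all 8 WT arrays.

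Clock encodes the other partner of ARNTL, and its 4 probes did not share a direction. The brightest, A_55_P2746404, gave 10.28, 10.67 and 10.85 in KO mice and 10.61, 10.75 and 10.87 in WT mice. The groups overlapped, though 3 KO mice were below every WT mouse, and the log2 difference of -0.14 had a 95% confidence interval from -0.43 to 0.15 (adjusted p = 0.517). Probe A_52_P279391 gave a difference of -0.40, while A_52_P334670 gave 0.19 and A_55_P2741789 gave 0.14, with adjusted p of 0.174, 0.208 and 0.205. No Clock probe separated the KO mice from the WT mice. In a fit of the total ChREBP line alone, A_52_P279391 was called lower and A_52_P334670 higher, with adjusted p of 0.0122 and 0.0320, where the alternatives ran up to 0.422 and 0.616.

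In the negative limb, Per1 encodes a period protein and is known to answer quickly to feeding and hormone signals. Its probe A_55_P1970033 gave 11.57, 11.91 and 12.75 in KO mice and 9.35, 10.19 and 11.36 in WT mice. All 7 KO mice were above all 7 WT mice. The log2 difference was 1.62 with a standard error of 0.29, a fold of 3.07 and an adjusted p of 7.31e-05. The call held whichever mouse was left out. The other Per1 probe, A_55_P2019327, was dim, between 4.66 and 5.16 in all groups, and its log2 difference was -0.09 (adjusted p = 0.34).

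Per2 encodes the period protein closest to PER1. Its brightest probe, A_55_P2737144, gave 10.11, 10.30 and 10.52 in KO mice and 9.997, 10.49 and 11.01 in WT mice. The KO mice lay inside the range of the WT mice. The log2 difference of -0.15 had a 95% confidence interval from -0.51 to 0.20 (adjusted p = 0.560), and that of the dimmer probe A_52_P536869 was 0.06 (adjusted p = 0.689).

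Per3, the remaining period gene, was read by probes A_66_P137063 and A_55_P2752088. A_66_P137063 gave 7.39, 8.02 and 8.71 in KO mice and 5.95, 6.74 and 7.37 in WT mice. Every KO mouse was above every WT mouse, though the nearest pair was only just apart. The log2 difference was 1.45 (SE 0.55, adjusted p = 0.0488), close to the threshold, and over the alternatives that p ran from 2.13e-04 to 0.338. Probe A_55_P2752088 gave a log2 difference of 1.14 with no overlap and an adjusted p of 0.147. The call of A_66_P137063 was lost on leaving out any of 18 mice, with adjusted p from 0.0513 to 0.0885. These were KO replicates 1, 2, 4, 5, 6 and 7, WT replicates 1, 2, 3, 5 and 6 and the mouse of WT replicates 7 and 8, ChREBPβ-deficient replicates 2, 3, 4 and 6, and replicates 2 and 7 of the WT littermates of that line.

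Cry1 encodes a cryptochrome, the strongest known repressor of the ARNTL pair. Its probe A_52_P420500 gave 5.58, 5.81 and 5.99 in KO mice and 6.07, 6.41 and 6.75 in WT mice. Every KO mouse was below every WT mouse, on the side of Arntl and opposite to the other called genes of the negative limb. The log2 difference was -0.61 (SE 0.22, adjusted p = 0.0365), with a range of 9.40e-04 to 0.367 over the alternatives. The call was lost without KO replicate 1, 5 or 7 or WT replicate 1, 2, 3 or 5, with adjusted p from 0.0539 to 0.0744. The other Cry1 probe, A_55_P2880103, gave -0.30 with overlapping groups (adjusted p = 0.342).

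Cry2 encodes the other cryptochrome, and its 3 probes all had a positive difference, of unequal size. Probe A_55_P1953708 gave 8.77, 9.04 and 9.35 in KO mice and 7.82, 8.03 and 8.61 in WT mice. The groups did not overlap. The log2 difference was 0.96 (SE 0.17, adjusted p = 9.46e-05), and the call held whichever mouse was left out. The brightest Cry2 probe, A_55_P2016540, gave 11.46, 11.70 and 11.76 in KO mice and 11.22, 11.32 and 11.45 in WT mice. Here too no KO mouse was below a WT mouse, but the log2 difference of 0.32 missed the threshold (adjusted p = 0.127). Probe A_55_P2721990 gave 0.57 with overlapping groups (adjusted p = 0.0873), and it passed without KO replicate 6 or without the mouse of WT replicates 7 and 8, with adjusted p between 0.0194 and 0.0464.

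Nr1d1 encodes REV-ERBα, a receptor that represses Arntl. Its probe A_51_P223776 gave 9.90, 9.99 and 10.52 in KO mice and 8.55, 8.90 and 9.34 in WT mice. All KO mice were above all WT mice, with a log2 difference of 1.20 (SE 0.26, adjusted p = 6.92e-04). The call held whichever mouse was left out.

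Nr1d2 encodes REV-ERBβ, and its 3 probes gave close values. The brightest, A_55_P2148534, gave 10.64, 10.97 and 11.35 in KO mice and 9.99, 10.33 and 10.48 in WT mice. For each of the 3 probes every KO mouse was above every WT mouse, and yet none was called. The log2 differences were 0.69, 0.70 and 0.79 for A_55_P2148534, A_55_P2911007 and A_52_P303891, with adjusted p of 0.100, 0.0791 and 0.0553. The fit pools the spread of all 4 groups, and mice of the ChREBPβ line differed widely in Nr1d2. A_52_P303891 passed without ChREBPβ-deficient replicate 8 or without replicate 1, 3, 4, 5 or 6 of the WT littermates of that line, with adjusted p from 0.0281 to 0.0491, and A_55_P2911007 passed without replicate 5 of those WT mice (adjusted p = 0.0455). In a fit of the total ChREBP line alone A_52_P303891 had an adjusted p of 1.46e-05, and over the alternatives it ran from there to 0.256. This probe was also called with slide as a random block, with replicate number as a block, by the Mann-Whitney test and with the 31 arrays kept apart. Its spots were usable on 4 of the 7 KO arrays and 5 of the 8 WT arrays, though well above background on each.

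Which of the 10 genes were called depended on how the mice were counted and how the spread was taken. With the 31 arrays kept apart 8 genes were called, the same 7 and Nr1d2, against 33.9% of all gene names. A fit of the total ChREBP line alone called 9, against 27.5% of all gene names, and the Mann-Whitney test with adjusted p called 9, against 22.5%. Its unadjusted p was under 0.05 for 17 of the 23 probes, against 31.3% of all probes. Each array was scanned on 1 of 2 days, with 3 to 5 mice of each group on each day. Every called probe kept its sign within each day: Arntl A_52_P267651 differed by -1.64 on day 1 and -1.13 on day 2, and Per1 by 1.77 and 1.41. Cry2 A_55_P1953708 differed by 1.11 and 0.77, and Nr1d1 by 1.24 and 1.16. Day 1 alone gave 5 called genes, against 19.5% of all gene names, and day 2 alone gave 0 by limma, against 12.0%, where each group of this line had 3 mice.

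The comparison of ChREBPβ-deficient mice with their WT littermates asks the same of mice without the β isoform alone, with the same limit on time of collection. No loop gene was called: limma called 0 of the 10 genes, against 0.00417% of all gene names, 0 of the 23 probes had an unadjusted p under 0.05, against 4.90% of all probes, and the Mann-Whitney test gave 0 at either level, against 6.06% of all probes unadjusted and 0% adjusted. With the 31 arrays kept apart the count was also 0. No probe separated both groups (0 of 23, against 0.0222% of all probes). The median log2 difference over the 23 probes was 0.11, against -0.00067 over all probes. The mice of each genotype differed greatly among themselves, so these counts do not show that the genotypes were alike.

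Arntl A_52_P267651 gave 7.48, 8.88 and 10.06 in the 8 ChREBPβ-deficient mice and 6.39, 9.33 and 10.03 in their 8 WT littermates. The lowest and the highest mice of each genotype were far apart, and the groups overlapped. The log2 difference of 0.32 had a 95% confidence interval from -0.62 to 1.26. It was 0.91 on scan day 1 and -0.25 on scan day 2. Npas2 gave 4.69, 5.07 and 6.11 in ChREBPβ-deficient mice and 4.54, 5.13 and 6.16 in WT mice, with a log2 difference of -0.05 and an interval from -0.46 to 0.37. Clock A_55_P2746404 gave 10.15, 10.32 and 10.88 in ChREBPβ-deficient mice and 9.63, 10.35 and 10.83 in WT mice, a difference of 0.05.

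Per1 A_55_P1970033 gave 9.56, 10.04 and 11.28 in ChREBPβ-deficient mice and 9.08, 10.09 and 10.32 in WT mice, with a log2 difference of 0.28 and an interval from -0.26 to 0.83. Per3 A_66_P137063 gave 6.73, 9.15 and 9.52 in ChREBPβ-deficient mice and 6.42, 8.10 and 10.17 in WT mice. The Per3 values of the WT mice enclosed those of the ChREBPβ-deficient mice, with a log2 difference of 0.35 and an interval from -0.70 to 1.41. That difference was -0.12 on scan day 1 and 0.92 on scan day 2. Per2 A_55_P2737144 gave a difference of -0.00053, with a range of 9.83 to 11.05 in ChREBPβ-deficient mice and of 10.04 to 11.14 in WT mice.

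Cry1 A_52_P420500 ranged from 5.39 to 6.84 in ChREBPβ-deficient mice and from 5.22 to 6.56 in WT mice, with a difference of -0.0045. Cry2 A_55_P1953708 ranged from 8.47 to 9.64 in ChREBPβ-deficient mice and from 8.28 to 9.59 in WT mice, with a difference of 0.26 and an interval from -0.07 to 0.59. Nr1d1 ranged from 8.77 to 10.64 in ChREBPβ-deficient mice and from 8.59 to 10.35 in WT mice, with a difference of 0.26 and an interval from -0.23 to 0.75. Nr1d2 A_55_P2148534 ranged from 9.87 to 11.41 in ChREBPβ-deficient mice and from 9.21 to 11.82 in WT mice, with a difference of 0.07. For all 4 genes the groups overlapped, and the range of Nr1d2 was wider in WT mice.

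Whether the effects of both deficiencies differ was tested directly, as the total ChREBP-KO effect minus the ChREBPβ-deficient effect. Per1 and Cry2 differed in this test, both with the larger effect in total ChREBP-KO mice, which is 2 of the 10 genes against 17.6% of all gene names. For Per1 the difference of the effects was 1.34 (SE 0.39, adjusted p = 0.0190), and the call held whichever mouse was left out. That call was lost with array weights and on scan day 2 alone, with adjusted p between 0.0565 and 0.388. For Cry2 A_55_P1953708 the difference of the effects was 0.70 (SE 0.24, adjusted p = 0.0447), with a range of 0.0179 to 0.612 over the alternatives. Its mean was 9.04 in total ChREBP-KO mice and 8.07 in their WT littermates. In ChREBPβ-deficient mice it was 9.18 and in their WT littermates 8.91. The KO mice were thus at the level of the ChREBPβ line in this probe, and the WT mice of the total ChREBP line were the low group. The other Cry2 probes, A_55_P2016540 and A_55_P2721990, gave 0.16 and 0.37 (adjusted p of 0.684 and 0.530). Arntl gave -1.74 with a 95% confidence interval from -3.11 to -0.36 and missed the threshold (adjusted p = 0.0828), and so did Npas2 with -0.83 (adjusted p = 0.0617) and Nr1d1 with 0.94 (adjusted p = 0.0727). In all, 7 of the 23 probes had an unadjusted p under 0.05, against 27.1% of all probes. The Cry2 call was lost on leaving out any of 18 mice, with adjusted p from 0.0507 to 0.0757: total ChREBP-KO replicates 1, 2, 4 and 8, WT replicates 1 to 6 of that line, ChREBPβ-deficient replicates 2, 4, 7 and 8, and WT replicates 1 to 4 of the ChREBPβ line. With the 31 arrays apart the Per1 call alone was left, which is 1 gene, against 18.3% of all gene names. On scan day 1 the Per1 value was 1.62 and on day 2 it was 1.08, and the Cry2 values were 0.88 and 0.41.

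The WT littermates of both lines had the same labelled genotype and treatment, and they too were compared. Clock was higher, and Nr1d1 and Cry2 were lower, in the WT mice of the total ChREBP line, which is 1 of 10 genes higher against 8.61% of all gene names and 2 lower against 10.3%. No loop probe separated the WT groups (0 of 23, against 2.04% of all probes), and 11 of the 23 had an unadjusted p under 0.05 in limma, against 29.2% of all probes. Cry2 A_55_P1953708 differed by -0.84 (standard error 0.17, adjusted p = 9.80e-04), from medians of 8.03 and 8.83, and the call held whichever mouse was left out. Nr1d1 differed by -0.77 (adjusted p = 0.0352) and Clock A_55_P2746404 by 0.42 (adjusted p = 0.0375). The other Cry2 probes, A_55_P2016540 and A_55_P2721990, gave -0.34 and -0.26 and were not called (adjusted p of 0.124 and 0.501). Clock A_52_P334670, A_52_P279391 and A_55_P2741789 gave 0.27, 0.48 and 0.08 and were not called either (adjusted p of 0.0788, 0.111 and 0.515). Per3 A_66_P137063 gave -1.51 and missed the threshold (adjusted p = 0.0543), and with the 31 arrays apart it was the gene added to these 3, for a count of 4 against 21.2% of all gene names. The Nr1d1 call was lost without WT replicate 2, 3 or 5 or the mouse of replicates 7 and 8 of the total ChREBP line, or without WT replicate 1, 2, 3 or 4 of the ChREBPβ line, with adjusted p from 0.0530 to 0.0792. The Clock call was lost without those same 4 mice of the ChREBPβ line, or without WT replicate 2, 5 or 6 or the mouse of replicates 7 and 8 of the total ChREBP line, with adjusted p from 0.0557 to 0.0931. On scan days 1 and 2 Cry2 differed by -1.16 and -0.48, Nr1d1 by -0.86 and -0.69, and Clock by 0.63 and 0.23. The Mann-Whitney test called 1 gene here, against 10.4% of all gene names. Line, litter and time of collection cannot be told apart in this comparison.

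Mice of the same genotype in the ChREBPβ line stood far apart along the loop. Among the WT littermates of that line, replicates 1, 3 and 4 had Arntl at 6.87, 6.87 and 6.39, replicate 2 had 9.003, and replicates 5 to 8 lay between 9.66 and 10.03. Per3 ran the other way in the same mice, at 9.47, 10.06 and 10.17 in replicates 1, 3 and 4. Among ChREBPβ-deficient mice, replicates 2, 7 and 8 had the highest Arntl, at 9.87, 9.83 and 10.06, and replicate 1 the lowest, at 7.48. In the total ChREBP line the whole range of Arntl within a genotype was 0.64 in KO mice and 0.65 in WT mice, against 2.58 in ChREBPβ-deficient mice and 3.64 in their WT littermates.

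The spread between mice was measured as the mean absolute distance from the median of the group. For Arntl A_52_P267651 it was 1.03 in the ChREBPβ line and 0.18 in the total ChREBP line, a ratio of 5.74, and for Nr1d2 A_55_P2148534 the ratio was 5.10. For Per1 A_55_P1970033 the spread was alike, with a ratio of 1.01, and Cry2 A_55_P2721990 was the probe with the smaller spread in the ChREBPβ line, with 0.866. The ratio was above 1 for 22 of the 23 probes with a median of 3.07, against a median of 0.959 over all probes. Among the ratios of all probes, that of Per1 A_55_P1970033, 1.01, lay at percentile 55.6. By limma on these distances 0 of the 10 genes passed, against 0% of all 36059 probes, and 16 of the 23 loop probes had an unadjusted p under 0.05, against 5.95% of all probes. The smallest adjusted p of all probes was 0.0809, that of Per3 A_55_P2752088. Distances from the group mean gave 5 genes, against 0.426% of all gene names, and the 31 arrays kept apart gave 1, against 0.0209%. Leaving out ChREBPβ-deficient replicate 5 gave 4 genes, against 0.0459%, and leaving out ChREBPβ-deficient replicate 4 gave 1, against 0.00834%.

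**Figure D2:**
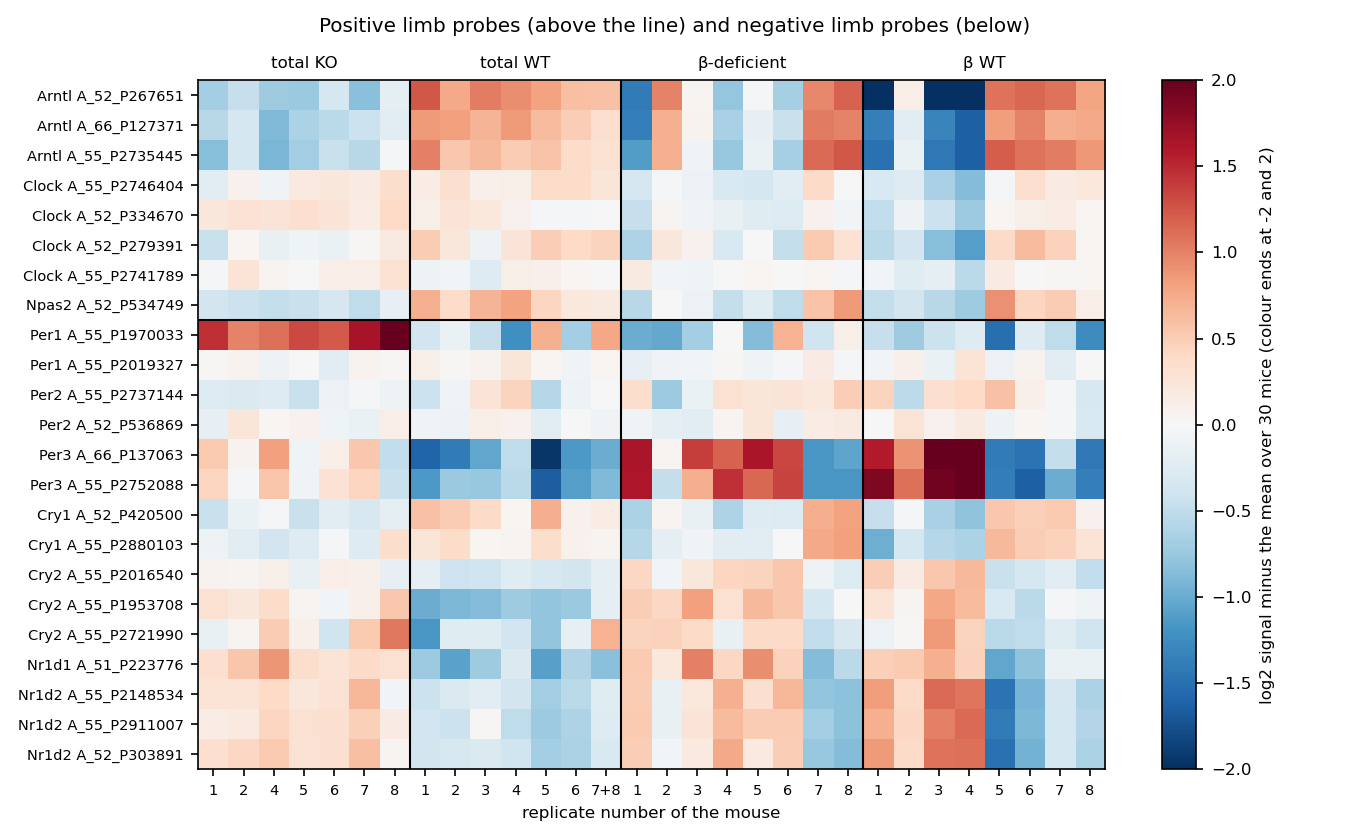
Log2 value of each of the 23 loop probes in each of the 30 mice, as the distance from the mean of that probe over all mice, with probes in order of limb and mice ordered within genotype group. WT replicates 1, 3 and 4 of the ChREBPβ line, the mice lowest in Arntl, are high in Per3 and Nr1d2.

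Against this spread, the total ChREBP-KO mice lay inside the range of the WT littermates of the ChREBPβ line for most probes. All 7 KO mice were inside that range for 16 of the 23 probes and for 7 of the 10 brightest probes per gene, against 16.4% of all probes. The WT littermates of the KO mice often lay inside that wide range too, so this was not particular to KO mice. All 7 were inside it for Npas2 and Nr1d2 A_55_P2148534 and 6 of 7 for Arntl A_52_P267651, but 1 of 7 for Cry2 A_55_P1953708. Arntl A_52_P267651 of the KO mice, at 8.04 to 8.68, lay between the low WT mice of the ChREBPβ line and the high ones. Per1 A_55_P1970033 was the loop probe for which every total ChREBP-KO mouse was above every other mouse of the 30, KO values starting at 11.57 where the highest value of the ChREBPβ line was 11.28, and 2.97% of all probes had all KO mice beyond all others. Clock A_52_P334670 had 0 of 7 KO mice inside the WT range of the ChREBPβ line, at 9.43 to 9.68 against 8.56 to 9.42.

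To place each mouse along the loop, each gene's brightest probe was centred on its mean over all mice, and the mean of the 3 positive limb genes was subtracted from the mean of the 7 negative limb genes. This limb difference was 0.56 ± 0.24 (SD, n = 7) in total ChREBP-KO mice, from 0.22 to 0.86, and -0.90 ± 0.19 (SD, n = 7) in their WT littermates, from -1.15 to -0.53. All 7 KO mice were above 0 and all 7 WT mice below it, a difference of 1.46 between the means (1.41 with the 31 arrays apart). In the ChREBPβ line it was 0.17 ± 0.84 (SD, n = 8) in deficient mice, from -0.98 to 1.02, and 0.12 ± 1.34 (SD, n = 8) in WT littermates, from -1.33 to 1.90. Here 5 of 8 deficient mice and 4 of 8 WT mice were above 0, and the means differed by 0.05. The sign of that small difference was not stable. It was -0.40 on scan day 1 and 0.52 on scan day 2, and it ran from -0.16 to 0.31 with 1 mouse left out. The WT mice of both lines differed by -1.02, with -1.58 on scan day 1 and -0.42 on scan day 2. In each of the 30 mice the limbs lay on opposite sides of their means. This is a description of the members, with no test.

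**Figure D3:**
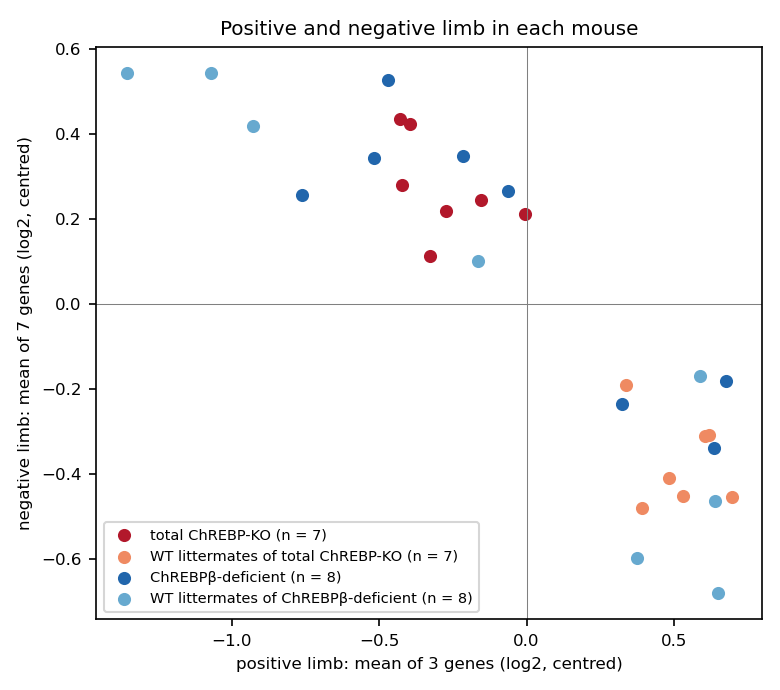
Mean centred log2 value of the 3 positive limb genes against that of the 7 negative limb genes in single mice, coloured by genotype group. Every total ChREBP-KO mouse has the negative limb higher and every WT littermate of that line has the positive limb higher, while each genotype of the ChREBPβ line has mice of both kinds.

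The relation of the other genes to Arntl between mice was tested within genotype groups, by exact permutation with adjustment over the 27 relations of 9 genes in 3 groups. Npas2 followed Arntl in all 3 groups, with Pearson r of 0.866 in total ChREBP-KO mice (n = 7, exact permutation p = 0.00913, adjusted p = 0.0464), 0.878 in their WT littermates (n = 7, exact permutation p = 0.0103, adjusted p = 0.0464) and 0.884 in ChREBPβ-deficient mice (n = 8, exact permutation p = 0.00156, adjusted p = 0.0211). Spearman's rho was 0.929, 0.893 and 0.952, with adjusted exact permutation p of 0.0455, 0.0664 and 0.0154. By rank the relation in the WT littermates thus missed the threshold. The Npas2 probe was dim and stood well above background in 5 of the 7 KO arrays. Without the 2 mice farthest from the median of Arntl, r was 0.465, 0.959 and 0.871, so the Pearson value in total ChREBP-KO mice depended on those 2 mice, while rho without them was 0.80 there.

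In ChREBPβ-deficient mice Cry1 rose with Arntl, with r of 0.893 (exact permutation p = 0.00124, adjusted p = 0.0211) and rho of 0.976 (exact permutation adjusted p = 0.0107). Nr1d2 ran against Arntl, with r of -0.89 (exact permutation p = 0.00295, adjusted p = 0.0266) and rho of -0.90 (exact permutation adjusted p = 0.0411). Cry2 A_55_P2016540 also ran against it, with r of -0.90 (exact permutation p = 0.00481, adjusted p = 0.0325), but rho of -0.76 missed the threshold (exact permutation adjusted p = 0.142). Without the 2 farthest mice r was 0.839 for Cry1, -0.92 for Nr1d2 and -0.95 for Cry2. Per3 gave r of -0.84 in these mice (exact permutation p = 0.0138, adjusted p = 0.0531). The WT littermates of the ChREBPβ line fell into separate clusters of Arntl, with a gap of 2.13 in a range of 3.64, with 3 mice below it and 5 above. No value over the whole group is given for that reason, and neither cluster held 6 mice. Each scan day held 3 to 5 mice of a group, too few for a value within a day.

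**Figure D4:**
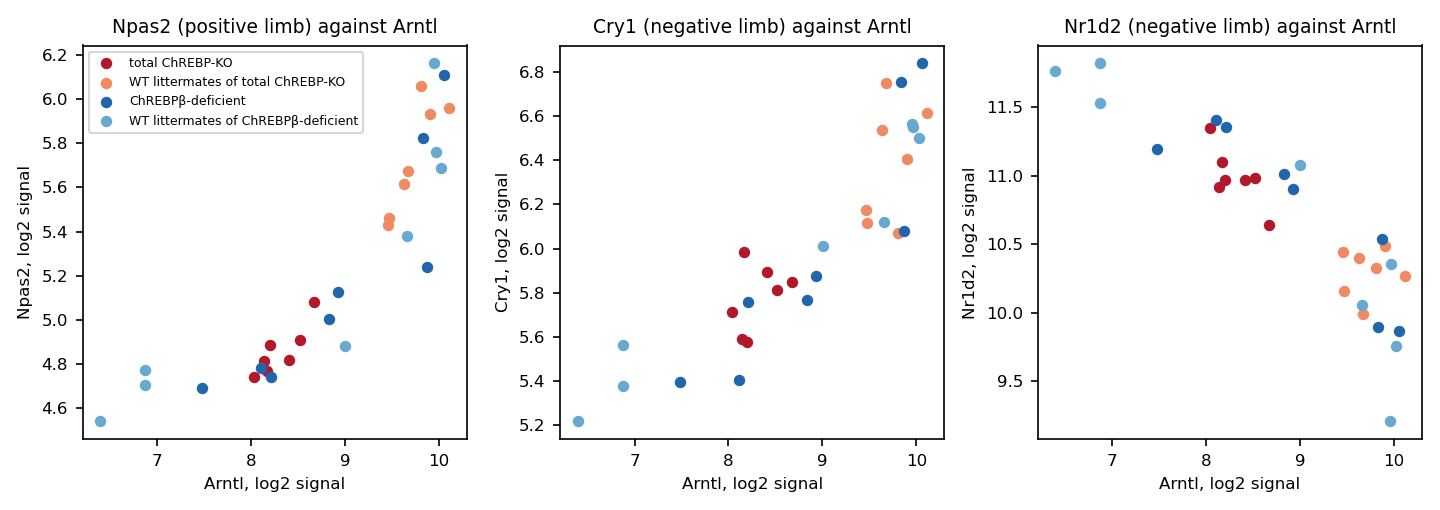
Log2 value of Npas2, Cry1 and Nr1d2 against that of Arntl in single mice, coloured by genotype group. In ChREBPβ-deficient mice Npas2 and Cry1 rise with Arntl (r of 0.884 and 0.893) and Nr1d2 falls with it (r of -0.89).

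Which probes went with the loop was also described over all 30 mice as the correlation with Arntl A_52_P267651 after each group's mean was removed. It has no p, since it includes the clustered WT mice of the ChREBPβ line. Of the probes of the negative limb, both Cry1 probes went with Arntl and not against it, with r of 0.867 and 0.839. Per3 (-0.88 and -0.92), Nr1d2 (-0.88, -0.87 and -0.88), Cry2 A_55_P2016540 (-0.90) and Nr1d1 (-0.65) went against it. Per1 and Per2 were only weakly tied to it, with -0.22 for Per1 A_55_P1970033 and -0.32 for Per2 A_55_P2737144. In the positive limb, Npas2 had 0.858 and Clock A_52_P334670 had 0.922, while the dim Clock probe A_55_P2741789 had 0.399.

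These correlations came mostly with the ChREBPβ line, and within the total ChREBP line alone they were weaker for most loop probes. There Npas2 had 0.82, Cry1 0.40 and 0.53, Per3 -0.42 and -0.30, and Clock A_52_P334670 0.53. Nr1d1 (-0.01), Cry2 A_55_P2016540 (-0.07) and Clock A_55_P2746404 (0.05) were near 0 in that line, and Nr1d2 had -0.37 for its brightest probe and 0.0014 and -0.26 for A_55_P2911007 and A_52_P303891. These values pool groups that ran opposite ways for the brightest probes of these genes. In total ChREBP-KO mice and their WT littermates in turn, r was 0.53 and -0.73 for Clock and -0.31 and 0.22 for Nr1d1. For Cry2 r was -0.30 and 0.21 and for Nr1d2 -0.78 and 0.11, and none of these passed the permutation test after adjustment.

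Among the genes whose brightest probe was most like Arntl in this measure, out of 23965, were Leo1 (0.965), Lgalsl (0.960), Mal2 (0.943), Nedd4l (0.940), Ypel2 (0.925), Desi2 (0.918) and Lonrf3 (0.918). Those most opposite were the transcript BF301431 (-0.97), Usp2 (-0.96), Pcsk4 (-0.95), Slc5a6 (-0.95), Tef (-0.93), Ciart (-0.91), Epha1 (-0.91) and Azin1 (-0.91). Cry2 ranked 10 from the opposite end, Nr1d2 16 and Per3 20. Within the total ChREBP line alone the correlations were weaker for most of these, such as 0.57 for Leo1 and -0.46 for Usp2.

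Genes next to the loop were counted from lists of clock genes. Over all gene names limma called 16.3% higher and 16.2% lower in total ChREBP-KO mice. Of the 4 output factors that carry the loop's rhythm to other genes, 2 were higher in total ChREBP-KO mice, Dbp (log2 difference 3.27, adjusted p = 0.0180) and Tef (1.25, adjusted p = 0.0309), and Hlf and Nfil3 were not called. Their median over 9 probes was 0.89. Of the secondary loop and repressors, 5 of the 7 genes counted passed the filter, of which Ciart was higher (1.23, adjusted p = 0.0327), and Bhlhe40 (-2.07, adjusted p = 9.67e-08), Rora (-0.27) and Cipc (-0.22) were lower. Bhlhe40 encodes DEC1, a repressor of the ARNTL pair, and Rora encodes a receptor that activates Arntl. The median of this list over 9 probes was -0.18. On scan days 1 and 2 Rora differed by -0.43 and -0.06 and Cipc by -0.34 and -0.07, and on day 2 neither was called (adjusted p of 0.872 and 0.705). Leaving out 1 mouse ended the call of Tef (any of KO replicate 7 and WT replicates 1 and 5, adjusted p up to 0.0612), Ciart (KO replicates 1, 4, 7 and 8 and WT replicates 1, 3, 5 and 6, up to 0.0699) and Rora (each KO mouse but replicate 7, and WT replicates 1 to 5, up to 0.104). Among the other alternatives the call of Rora was lost in 6 of 16, that of Ciart in 4 of 15 and those of Tef and Dbp in 2 of 16 each.

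Of the 10 enzymes that modify PER and CRY proteins, 2 were higher in total ChREBP-KO mice and 3 lower. Usp2, a ubiquitin protease of the clock, was higher by 2.32 (adjusted p = 0.00220), and Fbxl21 A_55_P2745039 by 0.20 (adjusted p = 0.0399). Csnk1a1 (-0.26), Btrc (-0.25) and Gsk3b (-0.43, adjusted p = 3.22e-04) were lower, and the median over 28 probes was 0.00. Of 9 known rhythmic outputs in liver, 5 were higher and 1 lower, with a median of 0.62 over 22 probes: Upp2 (2.13, adjusted p = 0.00264), Por (0.80), Alas1 (0.83), Cyp7a1 A_55_P2600274 (0.63) and Ccrn4l (0.26) were higher, and Lpin1 was lower (-3.18, adjusted p = 3.39e-12). Of 10 genes that follow feeding, temperature or glucocorticoids, Cpt1a (1.02, adjusted p = 3.96e-04) and Hsph1 (0.65, adjusted p = 0.0104) were higher, which is 2 of 10 with a median of 0.03 over 18 probes. The Fbxl21 call was lost without KO replicate 2, 7 or 8 or WT replicate 1, 3 or 4 (adjusted p up to 0.110). The Alas1 call was lost without KO replicate 2, 4, 5 or 6 or WT replicate 2, 3, 4 or 5 (up to 0.102), and that of Ccrn4l without KO replicate 1, 5, 6 or 7 or WT replicate 3, 4, 5 or 6 (up to 0.123). Among the alternatives other than leaving out a mouse, the Ccrn4l call was lost in 8 of 16 and the Alas1 call in 6 of 16. The Fbxl21 call was lost in 7 of 15 of them. The Cyp7a1 call was lost with the processed signal and on each scan day alone (adjusted p from 0.103 to 0.118), and its difference ran from 0.38 to 1.05 over the alternatives. Of the called probes whose values are given for these lists in total ChREBP-KO mice, those of Bhlhe40, Gsk3b, Lpin1 and Cpt1a were called on each scan day alone, and the others missed the threshold on at least 1 day. In ChREBPβ-deficient mice limma called 0 genes of each of these lists.

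Between the WT littermates of both lines the same lists also held calls, with 5 of the 10 modifiers higher and 1 lower in the total ChREBP line, and 4 of the 10 genes of feeding, temperature and glucocorticoids higher and 3 lower, where 8.61% of all gene names were called higher and 10.3% lower. Bhlhe40 (0.70) and Cipc (0.20) of the secondary loop were higher, and of the known outputs Lpin1 was higher (0.60) and Ccrn4l lower (-0.52). The output factors held 0 calls by limma in this comparison, with a median of -0.58 over 9 probes. Of the 17 genes called here in these lists, 10 kept their call whichever mouse was left out, among them Ccrn4l. In the WT mice of the total ChREBP line and of the ChREBPβ line in turn, the call of Bhlhe40 was lost without replicate 1, 3, 4, 6 or the mouse of 7 and 8, or without 2, 6, 7 or 8 (adjusted p up to 0.0924). That of Cipc was lost without replicate 1, 2, 3 or 4, or without 2, 4, 6, 7 or 8 (up to 0.102), and that of Lpin1 without replicate 1, 3, 4 or the mouse of 7 and 8, or without 1, 2, 3 or 4 (up to 0.0978).

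Markers of other cell types were read in the same arrays. The counts for total ChREBP-KO mice stand beside 16.3% of all gene names called higher. Of 6 hepatocyte markers 3 were higher in these mice, and the summed intensity of the 6 was 1587100 to 1648300 in KO mice, against 1414100 to 1488800 in WT mice. Alb had the highest intensity in that sum, which does not rank RNA amounts between genes. Of 6 Kupffer and immune markers 1 was higher (Ptprc), and 1 of 3 stellate markers (Reln), 1 of 3 cholangiocyte markers (Epcam) and 1 of 3 red cell markers (Alas2). Of 3 endothelial, 4 exocrine pancreas and 4 adipocyte markers that passed the filter, limma called 0, with summed intensities that overlapped between KO and WT mice for each type. Between the WT littermates 2 of 3 red cell markers were higher in the total ChREBP line, Hba-a1 by 1.07 and Hbb-b1 by 1.05, as was the endothelial marker Pecam1 by 0.21. The hepatocyte marker Cyp2e1 (-0.38) and the immune marker Ptprc (-0.17) were lower there. Over all gene names 8.61% were called higher and 10.3% lower between the WT littermates. The part of cell composition in the values of the loop genes was not tested.

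Promoter sequences of 9 of the 10 genes were matched by symbol in RefSeq (build GRCm38.p6), as windows from 250 bases before to 50 bases after each start. Per2 is named only. The motifs searched on both strands were CACGTG, the E-box that the ARNTL pair is known to bind, TTATGTAA and TTACGTAA, forms of the D-box bound by DBP and TEF, and AGGTCA, the core that REV-ERB receptors are known to bind. CACGTG was in 7.15% of all 32851 windows, in 1 of the 2 windows of Per1 and in that of Cry1. TTATGTAA was in 0.938% of all windows and in that of Per3, with 2 copies, and TTACGTAA was in 0.119% of all windows and in 0 of the 13 windows of loop genes. AGGTCA was in 16.3% of all windows and in a window of Arntl, Clock, Nr1d2 and Per1. The 250 bases before the start are printed for Per1, Per3 and Cry1, the loop genes with an E-box or D-box in the window, since Per1 and Per3 were higher and Cry1 lower in total ChREBP-KO mice. They are Per1 at chr11:69098699-69098948 (plus strand), Per3 at chr4:151044666-151044915 (minus strand) and Cry1 at chr10:85185055-85185304 (minus strand), 5′ to 3′, with the motif letters on either strand in capitals (TGACCT is AGGTCA on the other strand). A match describes the letters and is not a binding site.
Per1: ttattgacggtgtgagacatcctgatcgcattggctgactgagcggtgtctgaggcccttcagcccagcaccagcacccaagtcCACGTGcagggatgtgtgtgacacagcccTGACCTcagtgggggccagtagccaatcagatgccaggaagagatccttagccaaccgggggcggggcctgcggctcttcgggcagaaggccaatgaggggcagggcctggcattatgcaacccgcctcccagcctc
Per3: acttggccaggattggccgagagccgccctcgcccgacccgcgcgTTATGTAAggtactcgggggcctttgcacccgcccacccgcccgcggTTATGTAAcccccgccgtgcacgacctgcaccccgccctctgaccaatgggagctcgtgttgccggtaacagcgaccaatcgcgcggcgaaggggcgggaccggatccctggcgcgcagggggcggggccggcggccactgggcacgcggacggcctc
Cry1: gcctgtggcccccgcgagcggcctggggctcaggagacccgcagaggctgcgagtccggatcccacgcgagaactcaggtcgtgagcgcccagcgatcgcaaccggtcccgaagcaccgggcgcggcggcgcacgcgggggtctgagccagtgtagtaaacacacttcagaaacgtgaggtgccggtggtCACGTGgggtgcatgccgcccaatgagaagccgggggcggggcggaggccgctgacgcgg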

How the data were processed

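RNA of 31 livers was measured on one-colour Agilent arrays, 1 array per labelled mouse. The authors deposited scanner files with the intensity of each spot, and a table of log2 values that their text describes as weight-filtered and quantile normalized, with repeated probes reduced to their median. From the scanner intensities, log2 of the median signal was computed here without background subtraction, and control spots were left out. A spot was usable when it was found, positive and well above background, and a probe was kept with at least 26 usable arrays or 6 of 1 group, which kept 36059 probes. Values of a kept probe were used on all arrays, also where its spot was not usable. Quantile normalization ran over all 31 arrays, and gene names are those of the array.

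Arrays 7 and 8 of the WT littermates of the total ChREBP line were averaged and counted as 1 mouse after their likeness was seen. This departs from the planned 31 arrays, which were run as an alternative chosen after seeing the data. The 4 groups entered 1 model in limma 3.58.1 (R 4.3.3, files read with the package data.table, version 1.17.8), with p-values from empirical Bayes moderation adjusted by Benjamini-Hochberg over all probes at 0.05 and two-sided. Spread was tested by limma on absolute distances from group medians. Correlations used exact two-sided permutation tests over mice. The rule that a gap above 0.5 of the range marks clusters was chosen after the values were seen, and the relations in the WT littermates of the ChREBPβ line were computed once before they were dropped. The tests were checked on simulated data. Figures were drawn with matplotlib 3.10.9.

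Members and lists were chosen with earlier results of these data known. Named were all 10 loop genes, the list genes called in total ChREBP-KO mice (clock output, secondary loop and repressors, modifiers of PER and CRY, known outputs in liver, feeding, temperature and glucocorticoid genes), some of those called in the other comparisons, where the rest are counted, some markers of cell types and, of the 8 genes at each end of the likeness to Arntl, those printed. A planned gene of the secondary loop and a gene of the likeness ranking are not reported. Alternatives were other signals, scalings and filters, blocks for slide, scan day and replicate number, array weights, a fit per line, the Mann-Whitney test and leaving out each mouse.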

Additional observations from a re-analysis of the deposited data

Results flagged for a closer look

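Dixon's ratio of the gap beside an extreme mouse to the range of its group was past its 95% critical value in 4 of the 172 groups of mice tested, where chance gives about 1 in 20. Rora was high in total ChREBP-KO replicate 7, at 13.33 on the log2 scale with the next mouse at 13.00. Bhlhe40 was low in total ChREBP-KO replicate 5, at 9.47 with the next mouse at 10.26. In the WT littermates of the total ChREBP line, Por was high in replicate 2, at 13.73 with the next at 13.17, and Csnk1e A_55_P2501349 was low in replicate 6, at 7.48 with the next at 7.82.

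The effect of the total ChREBP-KO minus that of the ChREBPβ deficiency passed the limma test for 14 genes of the loop and the lists. Each is given below with the number of genes in its list, and 17.6% of all gene names passed. The lists were chosen with earlier results of these data known, so these counts are a description and no test of the lists. Among the 10 loop genes it was 1.34 for Per1 and 0.70 for Cry2. Among the 5 genes of the secondary loop that passed the filter it was -0.42 for Rora and -2.06 for Bhlhe40. Among the 10 modifiers of PER and CRY it was -0.27 for Csnk1a1, 0.42 for Fbxl21 A_52_P41239, -0.32 for Btrc, -0.41 for Gsk3b and 2.67 for Usp2. Among the 9 known outputs it was 1.02 for Por, 2.05 for Cyp7a1 A_52_P84027, 2.36 for Upp2 and -3.36 for Lpin1. Of the 10 genes that follow feeding, temperature or glucocorticoids, Cpt1a gave 0.96. None of the 4 output factors passed. These Fbxl21 and Cyp7a1 probes are other probes than those of the report. This Cyp7a1 probe gave 3.05 on scan day 1 and 0.89 on scan day 2, and its difference between total ChREBP-KO mice and their littermates was 1.08 (adjusted p = 0.0797). On scan days 1 and 2 Btrc gave -0.17 and -0.44, and Usp2 gave 3.49 and 1.74. Of the 14 genes, Bhlhe40 and Lpin1 passed on each scan day alone, and the others missed the threshold on at least 1 day. The call was lost on leaving out any of 18 mice for Cry2, of 17 for Rora (adjusted p from 0.0501 to 0.0736) and of 4 for Fbxl21 (total ChREBP-KO replicates 6 and 8 and WT replicates 2 and 3 of that line, adjusted p from 0.0505 to 0.0551).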

How the results depend on the processing

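The directions of the 9 called loop probes in total ChREBP-KO mice held under each alternative, among them the other signals and scalings. Of 1498 values of single loop probes under alternatives, 1344 kept their direction and side of the threshold, 119 lost a call, 31 gained a call and 4 changed sign. For genes of the lists these were 1933 of 2176 kept and 243 lost. The count of 7 called genes in total ChREBP-KO mice was 5 to 8 with 1 mouse left out (28% to 32.3% of all gene names) and 0 on scan day 2 (12.0%). With slide as a block it was 8 (33.2%), with replicate number as a block 8 (32.3%), and with array weights 5 (32.4%). The count for the difference of the effects, 2, was 1 with median signals scaled by their 75th percentile, with normexp correction, without the filter, with scan day as a term and with 31 arrays (9.94% to 18.4% of all gene names), 1 on scan day 1 (5.34%), and 0 on scan day 2 (5.13%) and with array weights (19.4%). With slide as a block it was 3 (19.1%) and with replicate number as a block 5 (18.1%). Arrays with the same number in both genotypes had correlations from -0.23 to 0.17 in the total ChREBP line. In the ChREBPβ line these ran from -0.16 to 0.53. The labels give only a replicate number, and no mice were paired in the main fit. The count for the difference of the effects was 1 to 5 with 1 mouse left out (15% to 18.5%). The count between WT littermates, 3, was 0 on scan day 2 (2.55%), 1 by Mann-Whitney (10.4%) and 1 to 5 with 1 mouse left out (14.5% to 20.7%). The count for spread, 0, was 5 with group means and 1 with 31 arrays, and 0 to 4 with 1 mouse left out. The count in ChREBPβ-deficient mice was 0 in each.

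The limb difference of 1.46 in total ChREBP-KO mice was 1.74 with the processed signal scaled to the 75th percentile, 0.98 with spots usable on all arrays, where 10 probes of 8 loop genes were left without Npas2 and Per3 and with other probes of Arntl and Clock, and 1.77 without Cry1 and Cry2, and 1.41 to 1.52 with 1 mouse left out. That in ChREBPβ-deficient mice, 0.05, was -0.0066 with the processed signal, -0.40 on scan day 1 and 0.52 on scan day 2, and -0.16 to 0.31 with 1 mouse left out. That between WT littermates, -1.02, was -1.22 to -0.76 with 1 mouse left out, -1.58 on scan day 1, -0.42 on scan day 2 and -0.58 with spots usable on all arrays. Per1 A_55_P2019327 gave 0.011 with the median signal scaled, Per2 A_55_P2737144 0.13 on scan day 2, and in ChREBPβ-deficient mice Arntl gave -0.25 on scan day 2 and Per3 -0.12 on scan day 1. The cause was not tested. A fit per line and the Mann-Whitney test give no value for the difference of the effects, and probes dim on some arrays have none where spots had to be usable on all. Dim probes limit Npas2, Per1 A_55_P2019327 and Clock A_55_P2741789, whose spots were not above background on every array.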
